A study of Mus musculus with 8 samples.

Results

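The Myc and Max network is a family of 10 genes of basic helix-loop-helix leucine zipper transcription factors: Myc, Mycn, Mycl, Max, Mxd1, Mxd3, Mxd4, Mxi1, Mnt and Mlx. Members were defined by gene symbol, with earlier results of these data known, and all 10 were found among the 55359 genes of the deposited count table. RNA was sequenced from 8 cultures of untreated wild-type murine peritoneal mast cells (PMCs) on a mixed C57BL/6x129/Sv background. Of these, 6 were primary cultures, 3 from female and 3 from male mice, and 2 were the lines PMC-303 and PMC-306, which the labels describe as spontaneously developed under ageing and neglect. Each line is represented by 1 library and has no sex in its labels. Ages of the mice were not given in the sources used here. According to the study, primary PMCs are freshly isolated and kept for a limited time in culture with IL-3 and SCF. The lines are kept in medium with less serum and less SCF. Medium, passage and transformation can therefore not be told apart in what follows. The study also grew PMC-306 in medium like that of primary PMCs. It reports unchanged mRNA of Cdkn2a, Arf, proteases and Mrgprb2 there and less KIT at the cell surface, but gives no values of network genes.

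Proteins of this network act as pairs. Max is the common partner: with Myc, Mycn or Mycl it binds the E-box and raises transcription of genes for ribosomes, metabolism and growth, and with Mxd1, Mxd3, Mxd4, Mxi1 or Mnt it recruits Sin3 and histone deacetylases to the same sites and represses them. Mlx is a Max-like partner that pairs with the glucose-responsive Mondo proteins Mlxip and Mlxipl and also with Mxd1, Mxd4 and Mnt, and Mga is a large repressor that pairs with Max. In many tissues Mxd1, Mxd4 and Mxi1 are known from differentiating or resting cells, whereas Mxd3 is known from cells in S phase. Mast cells depend on SCF and its receptor KIT, a pathway upstream of Myc in several cell types.

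Promoter windows are shown for the 5 members called between lines and primary cultures, since the E-box is the sequence the network itself reads. The windows come from RefSeq (table build GRCm38.p6), run from 250 bases before to 50 bases after a transcription start, and each matched GRCm39 exactly once on its chromosome. Windows were found for 9 of the 10 members, 11 in all, and Myc had none in the table. Capitals mark the E-box CACGTG, which reads the same on both strands, or the motif TTCCCGCC searched on both strands (written GGCGGGAA on the other), which is of the type bound by E2F factors and was chosen only after the Mxd3 window had been read.
Mxd3 (chr13:55477495-55477794, minus strand): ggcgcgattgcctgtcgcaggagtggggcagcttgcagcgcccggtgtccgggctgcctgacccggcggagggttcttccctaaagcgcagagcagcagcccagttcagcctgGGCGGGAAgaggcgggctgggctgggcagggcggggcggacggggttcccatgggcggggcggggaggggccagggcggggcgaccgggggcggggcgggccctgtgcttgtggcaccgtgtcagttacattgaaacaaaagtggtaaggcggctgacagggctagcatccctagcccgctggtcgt
Mxi1 upstream start (chr19:53298687-53298986, plus strand): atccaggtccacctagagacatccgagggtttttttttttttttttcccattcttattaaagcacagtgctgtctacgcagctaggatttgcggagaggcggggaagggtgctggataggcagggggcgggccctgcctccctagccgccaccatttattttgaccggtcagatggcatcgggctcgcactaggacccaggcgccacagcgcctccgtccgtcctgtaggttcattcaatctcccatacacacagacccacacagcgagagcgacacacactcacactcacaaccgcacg
Mxi1 downstream start (chr19:53317594-53317893, plus strand): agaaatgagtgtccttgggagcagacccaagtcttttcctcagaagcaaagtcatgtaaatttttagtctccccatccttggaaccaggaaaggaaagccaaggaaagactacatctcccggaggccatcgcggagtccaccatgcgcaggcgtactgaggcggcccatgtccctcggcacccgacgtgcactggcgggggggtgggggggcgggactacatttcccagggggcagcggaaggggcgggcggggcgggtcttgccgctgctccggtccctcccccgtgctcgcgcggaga
Mxd4 (chr5:34345005-34345304, minus strand): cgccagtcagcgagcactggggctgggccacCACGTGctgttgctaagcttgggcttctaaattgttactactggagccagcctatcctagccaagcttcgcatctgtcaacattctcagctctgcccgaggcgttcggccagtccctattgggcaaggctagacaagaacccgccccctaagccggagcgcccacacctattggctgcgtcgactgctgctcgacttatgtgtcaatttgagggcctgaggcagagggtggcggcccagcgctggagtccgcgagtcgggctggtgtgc
Mxd1 (chr6:86646092-86646391, minus strand): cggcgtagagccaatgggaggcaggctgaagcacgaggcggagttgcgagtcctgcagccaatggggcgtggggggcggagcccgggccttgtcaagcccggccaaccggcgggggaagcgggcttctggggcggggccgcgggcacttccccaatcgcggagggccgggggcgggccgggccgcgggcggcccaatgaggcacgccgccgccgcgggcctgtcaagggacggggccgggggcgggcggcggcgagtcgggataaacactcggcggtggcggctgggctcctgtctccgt
Mlx (chr11:100977866-100978165, plus strand): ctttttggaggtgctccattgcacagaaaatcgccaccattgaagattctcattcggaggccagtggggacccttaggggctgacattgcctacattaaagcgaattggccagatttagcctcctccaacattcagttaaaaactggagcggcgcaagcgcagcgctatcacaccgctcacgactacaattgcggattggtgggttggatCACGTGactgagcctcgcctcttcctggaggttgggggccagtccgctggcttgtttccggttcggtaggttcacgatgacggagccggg
The E-box was present in the windows of 4 members. It began 219 bases before the start in Mxd4, 123 bases before it in Mnt, 40 bases before it in Mlx and 3 bases before it in Max. It was absent from the windows of Mxd3, Mxd1, Mycn and Mycl and from all 3 windows of Mxi1, of which 1 overlaps the downstream window printed above. Of all 32851 windows of the table, 2349 (7.15%) held it. The E2F type motif occurred in 720 windows (2.19%) and among the members only in Mxd3, 137 bases before the start. A match describes these letters and was not tested as a site.

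Levels are given as CPM, counts relative to TMM-scaled library totals. Both lines were jointly compared with the 6 primary cultures by limma on log2(CPM + 0.1), and a gene is said to be called when its Benjamini-Hochberg adjusted p over all 14525 genes tested was under 0.05. Of the 10 members 9 could be tested, since Mycl had at most 1 count in any library. Mxd3, Mxi1 and Mlx were higher in the lines, Mxd4 and Mxd1 were lower, and Myc, Mycn, Max and Mnt were not called. These 5 called members of 9 tested stand beside a background of 33.8% of all genes tested called (18.3% higher and 15.5% lower), so that a call as such sets no member apart from the transcriptome. The median log2 difference was -0.15 for the 9 members and -0.01 for all genes tested. As each line had a single library, each was also compared with the lowest and highest primary culture. PMC-303 lay outside that range for 6 members (3 above, 3 below), with 63.4% of all genes outside it, and PMC-306 for 8 members (5 above, 3 below), with 64.2% of all genes. Both lines were outside on the same side for 5 members, as were 43.1% of all genes. The p-values measure the spread between these cultures, most of it that of the primary cultures, and the lines are assumed to vary like them. The labels call the primary cultures biological replicates without naming the mice.

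**Figure D1:**
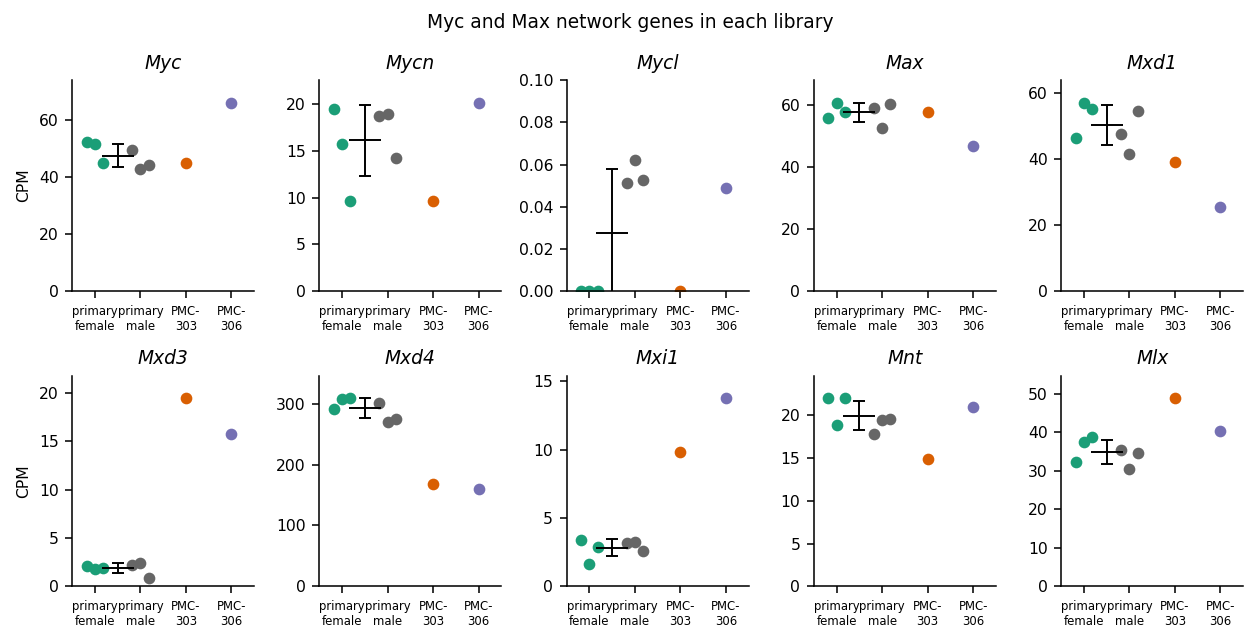
CPM (vertical axis, linear from 0, a scale of its own for each gene) of the 10 network genes in each library, with female (green) and male (grey) primary cultures, PMC-303 (orange) and PMC-306 (violet) as points and the mean and SD of the 6 primary cultures as a black cross bar. Both lines sit far above all primary cultures for Mxd3 (19.47 and 15.76 CPM) and Mxi1 (9.84 and 13.7 CPM) and below them for Mxd4 (168 and 160 CPM).

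Among the repressor partners of Max, Mxd3 rose most. Mxd3 (chr13:55472981-55477908, minus strand, GRCm39) had 19.47 CPM (473 counts) in PMC-303 and 15.8 (321 counts) in PMC-306. In the primary cultures its lowest, median and highest values were 0.839, 2.05 and 2.43 CPM, with a mean of 1.90 ± 0.566 CPM (SD, n = 6). The groups did not overlap, and the lower of the lines was several times the highest primary culture. Their log2 difference was 3.20 (SE 0.36, 9.21-fold, limma adjusted p = 0.000382). Leaving out any 1 of the 8 libraries kept the call, with log2 differences from 3.00 to 3.35. The coding transcript Mxd3-201 carried 85.7% of the estimated counts of the gene in PMC-303, 85.0% in PMC-306 and 87.2% of the summed primary counts. The mRNA of Mxd3 shares 876 of its 2760 exon bases with Prelid1 on the opposite strand, and the strand setting of the counting is not given in the sources used here. Prelid1 had 223 and 205 CPM in the lines and 131 ± 6.48 CPM (SD, n = 6) in primary cultures, and its part in the Mxd3 counts was not tested.

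Mxi1, another repressor partner of Max, rose in both lines as well, to a higher level in PMC-306 than in PMC-303. Mxi1 (chr19:53298852-53364241, plus strand) had 9.84 CPM in PMC-303 and 13.7 in PMC-306, against 1.67, 3.03 and 3.399 CPM as the lowest, median and highest primary values (2.83 ± 0.632 CPM, SD, n = 6). Again no primary culture reached the level of either line. On the log2 scale the difference was 2.03 (SE 0.28, 4.10-fold, limma adjusted p = 0.000993), between 1.80 and 2.27 when single libraries were left out. Coding transcripts of Mxi1 begin in an upstream group of starts or in a group downstream of the first upstream exon, which give proteins with different N-termini. These groups are called the upstream and the downstream start here. They pool separate starts, of 2 transcripts with counts upstream and 5 downstream, and the windows printed above do not cover all of them. Transcripts of the upstream start summed to 2.35 CPM in PMC-303 and 3.85 in PMC-306, with primary values between 0 and 1.20 CPM. Transcripts of the downstream start summed to 7.49 and 9.90 CPM, with primary values between 1.47 and 3.23 CPM. Both starts were thus above the primary range in both lines, and neither window printed above holds an E-box. The primary cultures had only 38 to 74 counts of the gene, and the division of reads among overlapping transcripts is an estimate, so that no test of the starts is given.

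**Figure D2:**
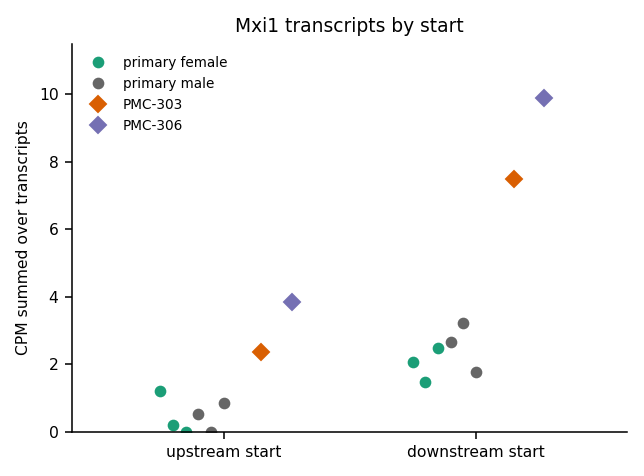
CPM summed over the Mxi1 transcripts that begin at the upstream and at the downstream start (vertical axis, linear from 0), with female (green) and male (grey) primary cultures as circles and PMC-303 (orange) and PMC-306 (violet) as diamonds. At both starts the lines lie above all 6 primary cultures, at 2.35 and 3.85 CPM upstream and at 7.49 and 9.90 CPM downstream.

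Mxd4, the most abundant repressor partner of Max in primary PMCs, fell in both lines. Mxd4 (chr5:34331227-34345240, minus strand) had 168 CPM in PMC-303 and 160 in PMC-306. The primary cultures ranged from 270 to 309 CPM with a median of 296 CPM (292 ± 16.5 CPM, SD, n = 6). Primary cultures varied little for this gene and lay well above both lines. On the log2 scale the difference was -0.83 (SE 0.075, 1.78-fold lower, limma adjusted p = 0.000155), between -0.87 and -0.80 without single libraries. A transcript with a retained intron, Mxd4-204, held 13.6% of the summed primary counts of the gene (10.6% to 14.97% by culture), 8.61% in PMC-303 and 10.4% in PMC-306.

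Mxd1, a further Mxd repressor, was lower in both lines, more so in PMC-306. Mxd1 (chr6:86624024-86646218, minus strand) had 39.1 CPM in PMC-303 and 25.4 in PMC-306, and 41.6, 50.9 and 56.9 CPM as the lowest, median and highest primary values (50.3 ± 6.09 CPM, SD, n = 6). PMC-303 thus lay close to the lowest primary culture and PMC-306 well below it. The log2 difference was -0.66 (SE 0.18, 1.59-fold lower, limma adjusted p = 0.0195). This call rests on PMC-306. Without that library the log2 difference was -0.36 (adjusted p = 0.170), and it was not called on the deposited TPM either (adjusted p = 0.123).

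Mnt, the broadly expressed repressor partner of Max, was not called. Mnt (chr11:74721338-74736836, plus strand) had 14.9 CPM in PMC-303, below all primary cultures, and 20.97 CPM in PMC-306, within their range of 17.7 to 22.0 CPM (median 19.48 CPM). The log2 difference was -0.17 with a 95% interval from -0.49 to 0.16 (limma adjusted p = 0.407). The lines thus took different positions, and the sign of the joint difference turned to 0.08 when PMC-303 was left out.

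**Figure D3:**
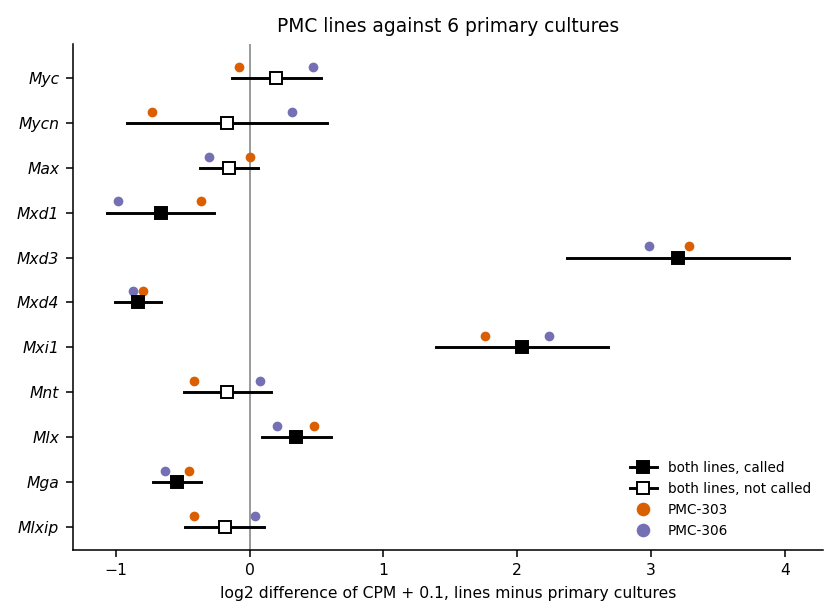
Log2 difference of CPM + 0.1 between the lines and the primary cultures (horizontal axis) for the 9 tested members and the partners Mga and Mlxip, with squares and bars for both lines together and their 95% interval (filled where called) and points for PMC-303 (orange) and PMC-306 (violet) against the mean of the primary cultures. Mxd3 and Mxi1 stand to the right at 3.20 and 2.03, Mxd4 and Mxd1 to the left at -0.83 and -0.66, and the intervals of Myc, Mycn, Max, Mnt and Mlxip include 0.

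Of the activating members, Myc itself was not called, and the lines differed in where they stood. Myc (chr15:61857227-61862223, plus strand) had 45.1 CPM (1096 counts) in PMC-303 and 66.2 (1348 counts) in PMC-306. The lowest, median and highest primary values were 43.0, 47.2 and 52.3 CPM (47.7 ± 4.07 CPM, SD, n = 6). PMC-303 was among the primary cultures and PMC-306 above all of them, at 139% of their mean. The joint log2 difference was 0.20 with a 95% interval from -0.13 to 0.53, or from 0.914-fold to 1.45-fold (limma adjusted p = 0.319). When PMC-303 was left out, PMC-306 alone gave 0.48 (adjusted p = 0.0291, with its single library assumed to vary like the others), and when PMC-306 was left out, PMC-303 gave -0.07 (adjusted p = 0.708). The log2 ratio of PMC-306 to PMC-303 was 0.55, which has no replicate behind it. Counts were spread over overlapping Myc transcripts. Of these, Myc-201, Myc-204 and Myc-205 each held between 20.7% and 29.0% of the gene in both lines. In single primary cultures they each held between 21.2% and 31.0%, and between 24.6% and 26.0% of the summed primary counts. Other Myc transcripts took more variable shares. Myc-202 held 14.4% in PMC-303 and 29.5% in PMC-306, against 0% to 13.6% in primary cultures, and Myc-206 held 7.98% and 0%, against 0% to 27.8%. The division among transcripts with shared exons is an estimate and was not tested.

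Mycn, which can stand in for Myc at the same sites, was not called and varied more among primary cultures than Myc (coefficient of variation 23.5% and 8.55%). Mycn (chr12:12986076-12992915, minus strand) had 9.67 CPM in PMC-303 and 20.1 in PMC-306, a ratio of 2.07. Primary values were 9.60 CPM at the lowest, 17.2 CPM at the median and 19.4 CPM at the highest (16.1 ± 3.79 CPM, SD, n = 6). PMC-303 stood at the low end of the primary range and PMC-306 just above its high end. The joint log2 difference was -0.17 with a 95% interval from -0.92 to 0.58 (limma adjusted p = 0.729), and it was 0.36 without PMC-303 and -0.69 without PMC-306. Mycl, the third Myc gene, had 0 counts in PMC-303, 1 in PMC-306, 0 in each of the female and 1 in each of the male primary cultures. All are below 3 counts, which correspond to between 0.1235 and 0.1865 CPM in these libraries, so that Mycl was not detectable at this depth and no fold is given.

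Max, the shared partner, was not called and had the lowest coefficient of variation of the members among primary cultures (5.38%). Max (chr12:76984043-77009009, minus strand) had 57.7 CPM in PMC-303 and 46.7 in PMC-306, with primary values from 52.5 to 60.7 CPM (median 58.5 CPM, mean 57.7 ± 3.11 CPM, SD, n = 6). PMC-303 equalled the primary mean and PMC-306 lay below every primary culture. The log2 difference was -0.15 with a 95% interval from -0.37 to 0.07 (limma adjusted p = 0.258). Both lines kept the division between the coding transcripts within the primary range. Max-201 held 57.6% and 66.3% of the gene in the lines and 55.0% to 71.1% in primary cultures, and Max-202 held 37.1% and 28.9% in the lines and 20.7% to 38.2% in primary cultures.

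Mlx, the Max-like partner of the Mondo proteins, was slightly higher in both lines. Mlx (chr11:100978080-100983043, plus strand) had 48.8 CPM in PMC-303 and 40.2 in PMC-306, against 30.5, 35.01 and 38.7 CPM as the lowest, median and highest primary values (34.8 ± 3.08 CPM, SD, n = 6). The groups did not overlap, but PMC-306 was only just above the highest primary culture. Their log2 difference was 0.35 (SE 0.11, 1.27-fold, limma adjusted p = 0.0441). The call did not hold without PMC-303 (0.21, adjusted p = 0.293), nor without 1 of the primary cultures female 1 (adjusted p = 0.0771), male 1 (0.0693), male 2 (0.0678) or male 3 (0.0702). It was also lost with no filter on low counts (adjusted p = 0.0844), without the mean-variance trend (0.0658), on the deposited TPM (0.138) and against female (0.217) or male (0.0857) cultures alone. Of the 2137 exon bases of Mlx 1109 are shared with Psmc3ip on the opposite strand, which had 9.63 and 6.63 CPM in the lines and 1.15 ± 0.417 CPM (SD, n = 6) in primary cultures. Its part in the Mlx counts was not tested.

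Of the further partners, Mga fell and the Mondo genes were not called. Mga, the large partner of Max, had 144 CPM in PMC-303 and 127 in PMC-306, below the primary range of 184 to 209 CPM (log2 difference -0.54, SE 0.078, 1.46-fold lower, limma adjusted p = 0.00122). Mlxip (MondoA) had 30.3 CPM in PMC-303, below the primary range of 36.6 to 44.5 CPM, and 41.7 CPM in PMC-306, within it (log2 difference -0.19, 95% interval from -0.48 to 0.11, adjusted p = 0.307). Mlxipl (ChREBP) had at most 3 counts in any library and was not tested.

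Levels of different genes were compared only per transcript length, as the deposited TPM. In primary cultures the order of mean TPM was Mxd4 (77.9 ± 9.83), Max (38.97 ± 3.52), Mlx (29.7 ± 5.72), Myc (26.8 ± 3.74), Mxd1 (13.2 ± 1.79), Mycn (7.38 ± 1.72), Mnt (4.58 ± 0.611), Mxd3 (1.62 ± 0.552) and Mxi1 (1.41 ± 0.345), each as mean ± SD with n = 6. The ranges of Max and Mlx, of Mlx and Myc, of Mycn and Mnt and of Mxd3 and Mxi1 overlapped. Within single libraries, however, Max stood above Mlx in 6 of 6 primary cultures, Mycn above Mnt and Mxd3 above Mxi1 in 5 of 6 each, and Mlx above Myc in 4 of 6. In PMC-303 Mxd3 (17.4 TPM) stood above Mxd1 (12.1 TPM), Mycn (4.64 TPM) and Mnt (3.62 TPM). In PMC-306 Mxd3 (14.5 TPM) likewise stood above Mxd1 (6.99 TPM), Mycn (10.7 TPM) and Mnt (5.72 TPM), and Myc (39.8 TPM) stood second to Mxd4 (48.2 TPM).

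Summed over the repressor genes Mxd1, Mxd3, Mxd4, Mxi1 and Mnt, the level was 98.7 ± 11.7 TPM (SD, n = 6) in primary cultures (78.0 to 111 TPM), 87.2 TPM in PMC-303 and 83.0 TPM in PMC-306. Both lines were inside the primary range of the sum, but its low end was the culture male 3 alone, and without that culture the range of 96.1 to 111 TPM lay above both lines. The composition of the sum differed as well. Mxd4 made up 77.3% to 80.8% of the sum in primary cultures, 56.0% in PMC-303 and 58.0% in PMC-306. Mxd3 made up 0.744% to 2.21% in primary cultures, 19.97% in PMC-303 and 17.5% in PMC-306. Mxi1 made up 0.757% to 1.87% in primary cultures, 6.01% in PMC-303 and 9.12% in PMC-306. Computed as CPM per kilobase of the longest listed transcript instead, the Mxi1 shares were 3.10% in PMC-303, 4.72% in PMC-306 and 0.686% on average in primary cultures, and the summed level of 60.5 in PMC-303 and 55.6 in PMC-306 lay below the primary range of 73.0 to 84.4. The culture male 3 had the lowest TPM of the primary cultures for Mxd4, Mnt, Myc, Max and Mlx, but the lowest CPM for none of these. Its Mxd3 was the lowest in both units, and its Mxd1, Mxi1 and Mycn in neither. The cause was not tested, and this culture enters the TPM means, SDs and fits.

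The summed level of Myc, Mycn and Mycl was 34.2 ± 4.64 TPM (SD, n = 6) in primary cultures (26.4 to 38.0 TPM), 30.9 TPM in PMC-303 and 50.5 TPM in PMC-306. Its ratio to the summed repressors was 0.347 ± 0.0355 (SD, n = 6) in primary cultures (0.287 to 0.395), 0.355 in PMC-303 and 0.609 in PMC-306. PMC-303 fell among the primary cultures and PMC-306 above all of them. The corresponding ratios per kilobase were 0.329 ± 0.0355 (SD, n = 6), with 0.370 as the highest primary value, 0.373 and 0.636. These are levels of mRNA, and no test of the sums or ratios is given.

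**Figure D4:**
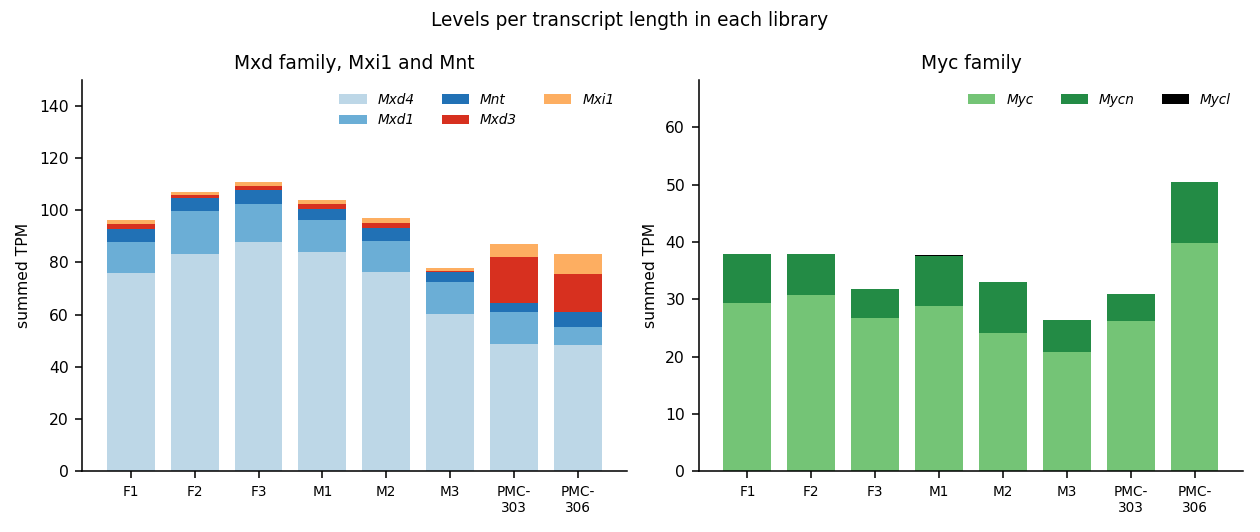
Stacked TPM (vertical axes, linear from 0) of the repressor partners of Max (left) and of the Myc family (right) in the female (F1 to F3) and male (M1 to M3) primary cultures and in PMC-303 and PMC-306. Mxd3 (red) and Mxi1 (orange) widen in the lines while Mxd4 (pale blue) shrinks from between 60.3 and 87.8 TPM to 48.8 and 48.2 TPM, and the Myc family reaches 50.5 TPM in PMC-306.

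Among the primary cultures, no member was called between the sexes. Of 9 members tested 0 were called between female and male cultures by limma, and 0 had an unadjusted p under 0.05, although with 3 cultures of each sex the 95% intervals were wide for some members, from 0.589-fold to 2.31-fold for Mxd3 and from 0.524-fold to 1.40-fold for Mxi1. Across all 13693 genes tested 0.0438% were called, 6 genes, and 456 genes had an unadjusted p under 0.05. The largest member difference was that of Mycn, -0.26 on the log2 scale as female minus male, with a 95% interval from -0.90 to 0.38 (limma adjusted p = 1.00). Means were 14.9 ± 4.97 CPM in female and 17.3 ± 2.64 CPM in male cultures (SD, n = 3 each). The coefficient of variation over the 6 primary cultures ranged from 5.38% for Max to 29.7% for Mxd3 among the 9 tested members, and it was 5.66% for Mxd4.

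Among the genes whose levels followed Myc most closely over the 8 libraries, out of 8750 genes averaging 10 CPM or more, were Sesn1 (Pearson r 0.968), Rps7 (0.958), Rps13 (0.958) and Rpl32 (0.957). Sesn1 had 45.5 CPM in PMC-303 and 73.8 in PMC-306, and the primary cultures averaged 46.7 ± 2.99 CPM (SD, n = 6). These genes, like Myc, were highest in PMC-306, and 1 high library can carry such an r. The ribosomal protein genes have many near-identical copies in the genome among which reads could be divided.

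Genes that work with the network were described from lists, by their calls in the fit of both lines. Over all genes tested 33.8% were called, 18.3% higher and 15.5% lower. Of 11 Myc cofactors 2 rose, a share like that of all genes, the chromatin remodelling subunits Ruvbl2 (0.70, limma adjusted p = 0.00199) and Actl6a (0.73, adjusted p = 0.000607, both as log2 differences), and 9 were not called. The list median was 0.10. Of 10 corepressor genes on which Mxd proteins draw 5 rose and 0 fell, beside the 18.3% and 15.5% of all genes, with a median of 0.41. They were the histone-binding subunits Rbbp7 (1.72) and Rbbp4 (0.55), the Sin3-associated Sap30 (2.41) and the deacetylases Hdac2 (0.81) and Hdac1 (0.65). The scaffolds Sin3a (0.19, adjusted p = 0.185) and Sin3b (-0.13, adjusted p = 0.361) were not called. Sap30 had 16.05 CPM in PMC-303 and 12.5 in PMC-306, against 1.73 to 3.61 CPM in primary cultures. The number of cofactors called was 4 without PMC-303, with 3 higher and 1 lower.

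Of 10 genes that set the stability of the Myc protein 4 rose and 1 fell, beside 18.3% and 15.5% of all genes, with a median of 0.17. On the deposited TPM 3 rose and 0 fell. Cip2a, an inhibitor of the phosphatase PP2A that protects Myc from degradation, had 129 CPM in PMC-303 and 114 in PMC-306, against 7.19 to 14.7 CPM in primary cultures (log2 difference 3.49, SE 0.26, 11.2-fold, limma adjusted p = 8.52e-05). Skp2, an F-box subunit of a ubiquitin ligase that targets Myc, rose by 1.55 (adjusted p = 0.000223). Set, another PP2A inhibitor, and Usp28, a deubiquitinase acting on Myc, rose by 0.83 and 0.72, the latter not called without PMC-306 (adjusted p = 0.0767). Gsk3b, a kinase that marks Myc for degradation, fell by 0.30 (adjusted p = 0.0181, but 0.0626 without PMC-303 and 0.0789 without PMC-306), and the ubiquitin ligase subunit Fbxw7 was not called (-0.32, adjusted p = 0.0625).

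Among the genes known as targets of Myc, calls were mostly higher in the lines, as were 54.1% of the calls over all genes (70.7% on the deposited TPM), of which 33.8% were called, 18.3% higher and 15.5% lower. Of 30 nucleolar and ribosome assembly targets 15 rose, 1 fell and 14 were not called, with a median of 0.26. Nop56 and Nop58, core proteins of small nucleolar ribonucleoproteins, rose by 0.92 (limma adjusted p = 0.0162) and 0.88 (adjusted p = 0.000213), and Polr1a, the large subunit of RNA polymerase I, fell by 0.47 (adjusted p = 0.0134). Only 9 genes of this list were called without PMC-303, likewise 9 without PMC-306, and 9 on the deposited TPM. The calls of Nop56 (adjusted p = 0.0710 without PMC-303 and 0.0722 without PMC-306) and of Polr1a (0.0818 without PMC-306) were among those lost. Of 23 metabolic targets 15 rose, 1 fell and 7 were not called, with a median of 0.76. The amino acid transporter Slc7a5 had 144 CPM in PMC-303 and 93.2 in PMC-306, against 10.6 to 30.5 CPM in primary cultures (log2 difference 2.55, SE 0.35, adjusted p = 0.00100). Its heavy chain Slc3a2 fell by 0.67 (adjusted p = 0.00978, but 0.0606 without PMC-306), and the glycolytic enzyme Eno1, which has near-identical copies in the genome, rose by 1.63 (adjusted p = 0.00144). The classical Myc targets Odc1 (0.15, adjusted p = 0.671) and Srm (0.20, adjusted p = 0.589) were not called. Of 10 translation and chaperone targets 8 rose and 0 fell, with a median of 0.59, among them Eif5a (0.89, adjusted p = 0.000124) and Pa2g4 (0.71, adjusted p = 0.00167). These medians stand beside -0.01 for all genes tested.

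Genes known to be repressed by Myc or driven by Mlx were fewer. Of 9 genes of the first kind 5 could be tested, of which 3 fell and 1 rose, beside 15.5% and 18.3% of all genes, with a median of -0.62. Without PMC-306, 2 fell and 2 rose. The cyclin-dependent kinase inhibitors did not move together: Cdkn1b rose by 1.68 (limma adjusted p = 0.00171), with 55.2 and 99.7 CPM in the lines against at most 26.998 CPM in any primary culture, and Cdkn1a fell by 0.62 (adjusted p = 0.0192, but 0.137 without PMC-306). Cdkn2b was not called (1.29, adjusted p = 0.0823), with 30.7 CPM in PMC-303 and 6.24 in PMC-306 against 3.69 to 7.13 CPM. Without PMC-306 its log2 difference was 2.43. The study reports a heterozygous deletion of the region holding Cdkn2a and Arf in PMC-306, which PMC-303 does not show. The part of this deletion in the Cdkn2b levels was not tested. The stress gene Gadd45a fell by 2.83 (adjusted p = 0.0253) and Ndrg1 fell by 1.53 (adjusted p = 0.0283). Gadd45a had 0.288 CPM in PMC-303 and 5.21 in PMC-306, against 7.22 to 13.2 CPM in primary cultures, and Ndrg1 had 17.2 CPM in PMC-303 and 70.0 in PMC-306 against 82.3 to 127 CPM. Both falls were largest in PMC-303, and without that library they were -0.95 (adjusted p = 0.1005) for Gadd45a and -0.52 (adjusted p = 0.185) for Ndrg1, whose call held in 5 of the 8 fits that left out 1 library. Only 2 genes of this list were called without PMC-303. Of 7 Mlx and Mondo targets 5 could be tested and 1 was called, the arrestin-like Txnip, which fell by 0.91 (adjusted p = 0.0129, but 0.08705 without PMC-303), with 237 and 284 CPM in the lines against 389 to 672 CPM. That list had 0 calls without PMC-303 and 2 without the culture female 1.

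**Figure D5:**
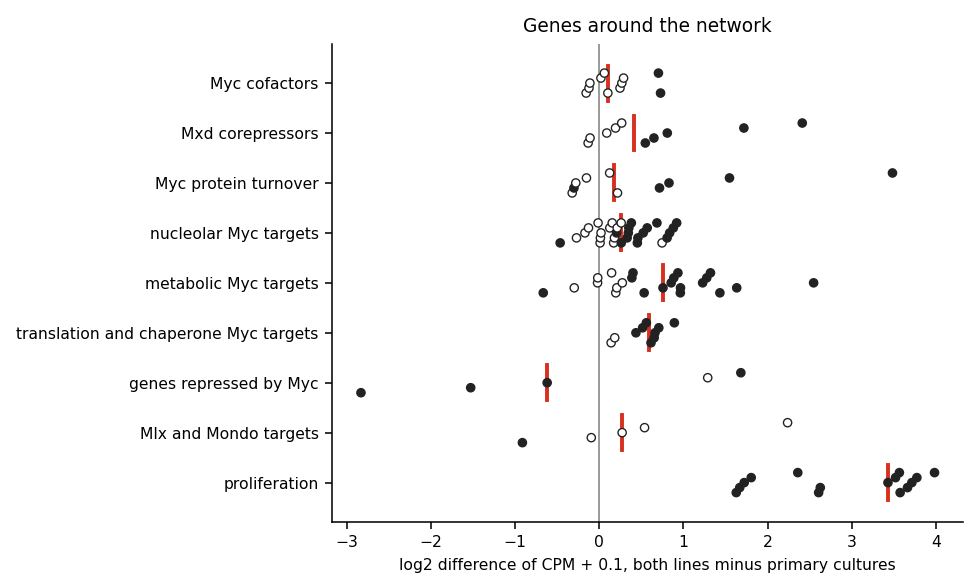
Log2 difference of CPM + 0.1 between both lines and the primary cultures (horizontal axis) for the tested genes of 8 lists around the network and for 15 proliferation genes, with filled points for called genes, open points for the others and a red bar at each list's median. The medians of the metabolic and of the translation and chaperone targets stand at 0.76 and 0.59 and that of the proliferation genes at 3.43, beside -0.01 for all genes tested.

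Some properties of the libraries move with these results. All 15 proliferation genes were higher in the lines, with a median log2 difference of 3.43, Mki67 had 1015 and 835 CPM against 28.6 to 106 CPM, and Ccna2 had 286 and 216 CPM against 6.56 to 24.1 CPM. The part of proliferation in the differences of Mxd3, of the corepressor and Myc stability lists and of the target lists was not tested. The libraries held between 15918757 and 24180226 estimated counts. All 9 mast cell markers, among them Kit, Fcer1a, Ms4a2, Cpa3 and Cma1, exceeded 1 CPM in every library, and 5 of them were called lower in the lines. The largest falls of that list were those of the tryptase gene Tpsb2, which has a close paralog, with 177 and 20.9 CPM in the lines against 2857 to 10441 CPM (92.0-fold lower), and of Anpep, with 69.6 and 76.0 CPM against 346 to 591 CPM (6.42-fold lower), while Ms4a2, Cpa3 and Cma1 were not called. The 9 macrophage markers summed to 8.93 CPM in PMC-303, 452 CPM in PMC-306 and 7.75 to 68.9 CPM in primary cultures. In PMC-306 Adgre1 alone had 426 CPM. The only macrophage marker called was Icam2, with 1.77 CPM in PMC-303 and 10.6 in PMC-306 against at most 1.10 CPM in primary cultures (limma adjusted p = 0.0193, and 0.178 without PMC-306). C1qa and C1qb had no count in either line and Csf1r had less than 0.1 CPM in both. Summed markers of B cells, neutrophils and of mesothelial cells and fibroblasts were below 0.4 CPM in every library, and those of T cells reached 3.47 CPM in 1 primary culture. The library labelled PMC-303 held 4.198 CPM of 4 Y-linked genes, 1.25% of the male primary mean, where no female culture exceeded 0.0879 CPM. PMC-306 held 332 CPM of these genes, beside a male primary mean of 336 CPM, and the study describes a male karyotype for this line. The level in PMC-303 was 1.26% of that in PMC-306, and its origin was not tested. Under total count scaling the median log2 difference of all genes shifted by 0.11 and the share of higher genes among those called rose from 54.1% to 67.1%, and on the deposited TPM these were 0.14 and 70.7%. The directions of the 5 called members and the signs of the medians of the lists around the network did not differ between these scalings. The median of the members themselves was slightly negative in the main fit and slightly positive on the deposited TPM. In RNA of whole cultures, more cells with a transcript and more transcript per cell cannot be told apart.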

How the data were processed

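RNA of 8 cultures was measured, 2 PMC lines with 1 library each and 6 primary WT PMC cultures, grouped by their labels. According to the study and the submitters' processing notes, the authors trimmed reads of a stranded total RNA kit with Trim Galore 0.6.7, used STAR 2.7.9a for alignment to GRCm39, and obtained gene and transcript abundances from Salmon 1.5.2. Estimated counts were deposited by the authors, which are not normalized, together with deposited TPM values, which are scaled for transcript length and library size. A spreadsheet program had rewritten 3.37% of the gene count cells, 3.22% of those for transcripts and 20.8% of those for TPM before deposit. Each was restored to its reading. Of the gene counts, 99.7% were then within 0.2 of their transcripts' sum. The point in 5700 TPM cells, 3 of them of members, was chosen from the counts. No column of values was left without a sample.

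The restored table was not treated as a count table. Counts were scaled with TMM, and limma 3.58.1 in R 4.3.3 was fitted with a mean-variance trend to log2(CPM + 0.1) of genes with about 10 counts in at least 2 libraries (3 for the sexes) and 15 in total. In simulated libraries it recovered 87.9% of 99 genes changed 2-fold and 100% of 101 changed 4-fold for the lines, with 11 false calls over 14525 genes. For the sexes it recovered 89.8% of 98 and 100% of 102, with 9 false calls over 13693 genes. Changed genes were drawn from those with many counts, all genes had a single fixed dispersion, and both lines were given the same fold. Recovery is therefore not known for genes with few counts or for lines that differ. Pairs of primary libraries differed by more than sampling noise (chi-square between 19.1 and 62.5 per degree of freedom). Members and lists were chosen with earlier results of these data known. Named genes were all members and partners, the 2 largest called rises and falls of each list, mast cell markers, Mki67 and the 5 genes most like Myc, of which 1 is not reported here. Hdac1, Hdac2, Rbbp4, Sin3a, Sin3b, Set, Usp28, Fbxw7, Odc1, Srm, Cdkn1a, Cdkn2b, Prelid1, Psmc3ip, Adgre1, C1qa, C1qb, Csf1r, Lyz2 and Cd68 were named after their values were seen. Gene positions are from GENCODE M39. Other scalings, offsets, filters, models and subsets of libraries were tried. Other calculations used Python 3.11.15 with numpy 2.4.6 and pandas 2.3.3.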

Additional observations from a re-analysis of the deposited data

Results flagged for a closer look

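Among the 6 primary cultures, the highest and the lowest value of each of 13 genes (the members and the partners Mga, Mlxip and Mlxipl) were set against the gap to their neighbour. A single value stood apart, that of Mlxipl in the primary male 3 culture, with 0.157 CPM, which is 3 counts in that library and at the limit of detection. Chance is expected to single out about 1 in 20 groups. No member lay above the primary range in one line and below it in the other.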

How the results depend on the processing

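Under the other scalings, offsets, filters and models, Mxd3, Mxi1 and Mxd4 kept their direction and their call in every fit that tested them. Mxd1 and Mlx did not, and only 3 of 9 members were called on the deposited TPM, against female cultures alone and against male cultures alone. The calls over all genes fell from 4914 to 2108 against female and to 3007 against male cultures alone, and to 3084 when genes with an altered cell, among them 3 tested members, were left out, where fewer genes (10319) were tested. Genes called of the lists fell from 58 to 35 against female cultures and to 18 without altered genes. Genes called between sexes fell from 6 to 1 without altered genes. Leaving out single libraries gave 3833 to 4646 called genes, 4 to 5 called members and 46 to 60 called list genes for the lines, 5 to 6 called genes and 0 called members for the sexes, and 6 to 7 members outside the primary range in PMC-303 and 8 in PMC-306. Uncalled members changed sign in some fits: Mnt was 0.0022 on the deposited TPM, and without single libraries Myc ranged from -0.0745 to 0.478, Mycn from -0.692 to 0.358, Max from -0.305 to 0.00175 and Mnt from -0.411 to 0.0790. Between sexes, Max ranged from -0.0398 to 0.0598, Mxi1 from -0.426 to 0.0659, Mycn from -0.477 to 0.0279 and Mxd3 from -0.238 to 0.476. Among the named list genes, Gsk3b, Polr1a, Slc3a2, Txnip, Cdkn1a and Usp28 were not called on the deposited TPM (adjusted p from 0.0532 to 0.504). The causes were not tested. Fitted with a replicate block, the comparison of sexes called 5 genes and 0 members. Deviations of cultures with the same number correlated by 0.40, -0.22 and 0.28, so that the numbers were not taken to pair the cultures. With 1 library for each line, no spread within a line is known, and genes under 3 counts cannot be judged at this depth.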
